A study of Mus musculus with 96 samples.

Results

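This account describes 34 mouse genes that build the centromere and the kinetochore, followed in single C10 cells that were untreated or had been given RO-3306, a small molecule known as a CDK1 inhibitor. The genes are a list of names with no threshold on any measured value, drawn up with earlier results of these data known, and all 34 are among the 40202 genes of the count files. They fall into 7 groups by role, from the centromeric histone and its loading factors to the outer kinetochore and the shugoshins. C10 is a mouse lung line, and all libraries were made from single cells of it with the nanoSPLITS method, which divides a cell's lysate so that RNA and protein can both be measured.

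There were 48 control libraries, with the treatment given as none, and 48 libraries of RO-3306 cells. The protocol text, which all samples share, gives a dose of 10 nM for 36 h. Libraries with at least 50000 counts and 1000 genes were kept, which left 29 control and 37 RO-3306 cells. No culture, passage or animal is named, so each treatment counts as 1 sample. No test between treatments was therefore possible, and no p-value is given. Intervals are exact at the 95% level. Those of levels and ratios cover counting error only. Those of shares of cells take cells as independent draws and do not cover differences between cultures. Each title carries a letter from A to D whose meaning the labels do not give, and values are also shown within these 4 lettered sets, which hold 10, 8, 6 and 5 control cells and 10, 10, 11 and 6 RO-3306 cells.

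Kept control cells had from 59979 to 6457210 counts and kept RO-3306 cells from 295005 to 5321880. The highest total among libraries left out was 47767 in control cells. In RO-3306 cells it was 773537, in a library that fell short on genes. The labels call C10 an alveolar type II epithelial line. Of 7 alveolar type II markers, 5 were at 0 in the control group and 4 in the other, with Sftpc at 0 in both. The 6 mesenchymal markers summed to 5579 counts per 1000000 counts (CPM) in the controls and to 2523 CPM after RO-3306. The part of these differences in the results below was not tested.

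The kinetochore is the protein assembly that ties a chromosome to spindle microtubules in mitosis. It is built on centromeric chromatin, where the histone H3 variant CENP-A marks the site and the constitutive centromere network binds it throughout the cell cycle. The Mis12 and Ndc80 complexes are added on the outside as cells enter mitosis, and many of these genes are transcribed most strongly in G2 and M phase.

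Across all 34 genes the summed level was 3681 CPM (3667 to 3696) in control cells and 3864 CPM (3851 to 3877) in RO-3306 cells, a log2 ratio of 0.07. That ratio was 0.11 in set A, -0.20 in set B, 0.54 in set C and -0.03 in set D, so the sets did not share a sign. A member was read as measured when its mean over the treatments was at least 5 CPM, which 32 of the 34 were. The exceptions were Cenpn and Cenpo. Ratios of single genes are on the scale of log2(CPM + 1). The median ratio of the 32 was -0.03 when groups were scaled to their total counts, but 0.18 with TMM factors and 0.20 with DESeq2 size factors, beside medians of -0.22, -0.01 and 0.01 for the 9374 genes measured. Scaling to totals thus gave 13 members higher and 19 lower in RO-3306 cells, and either other scaling gave 21 higher and 11 lower. The 8 that change sign are Oip5, Cenpk, Cenpm, Nsl1, Pmf1, Zwint, Ndc80 and Cenpf. All values below use total counts.

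Members at least 2-fold lower in RO-3306 cells numbered 5 of 32, or 15.6%, where 24.2% of all measured genes were that much lower. They were Hjurp, Cenpl, Ska2, Ska3 and Spdl1. Members at least 2-fold higher numbered 4, or 12.5%, beside 12.2% of all genes. They were Cenpa, Mis18a, Cenpt and Cenpu. Both shares are near or below those of all genes. Cenpa, Mis18a and Cenpt were also higher in each of the 4 lettered sets, as were 7.23% of all genes, and Hjurp and Ska2 were lower in each, as were 6.43%.

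Promoter windows of these 5 genes are printed because they were past 2-fold over all kept cells and kept 1 direction in every set. Each runs from 250 bases before to 50 bases after a RefSeq start site in the GRCm38.p6 build, 5′ to 3′ on the gene's strand. Capitals mark 3 kinds of match on either strand, which do not overlap here. They are the cell cycle homology region (TTTGAA or TTTAAA), the CCAAT box (CCAAT, read as ATTGG on the other strand) and an E2F-type word (TTTCCCGC, TTTCGCGC, TTTGCCGC or TTTGGCGC).

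Cenpa (chr5:30666636-30666935, plus strand): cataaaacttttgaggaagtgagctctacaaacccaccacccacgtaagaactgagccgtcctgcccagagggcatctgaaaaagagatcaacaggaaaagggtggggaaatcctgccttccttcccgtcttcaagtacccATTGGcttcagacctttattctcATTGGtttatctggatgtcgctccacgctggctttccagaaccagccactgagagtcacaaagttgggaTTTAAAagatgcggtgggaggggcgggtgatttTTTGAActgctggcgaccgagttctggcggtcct
Mis18a (chr16:90727322-90727621, minus strand): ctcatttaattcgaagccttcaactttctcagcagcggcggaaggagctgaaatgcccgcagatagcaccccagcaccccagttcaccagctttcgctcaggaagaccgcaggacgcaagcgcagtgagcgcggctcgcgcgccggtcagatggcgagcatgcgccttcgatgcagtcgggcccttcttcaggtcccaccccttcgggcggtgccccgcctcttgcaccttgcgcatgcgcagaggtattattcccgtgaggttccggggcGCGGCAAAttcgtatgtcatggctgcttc
Cenpt (chr8:105851959-105852258, minus strand): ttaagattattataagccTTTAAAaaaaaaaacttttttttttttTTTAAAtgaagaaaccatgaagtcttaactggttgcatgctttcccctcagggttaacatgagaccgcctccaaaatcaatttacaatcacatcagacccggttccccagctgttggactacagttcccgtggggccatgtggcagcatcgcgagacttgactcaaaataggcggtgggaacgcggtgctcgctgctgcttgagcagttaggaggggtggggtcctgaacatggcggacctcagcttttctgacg
Hjurp (chr1:88277530-88277829, minus strand): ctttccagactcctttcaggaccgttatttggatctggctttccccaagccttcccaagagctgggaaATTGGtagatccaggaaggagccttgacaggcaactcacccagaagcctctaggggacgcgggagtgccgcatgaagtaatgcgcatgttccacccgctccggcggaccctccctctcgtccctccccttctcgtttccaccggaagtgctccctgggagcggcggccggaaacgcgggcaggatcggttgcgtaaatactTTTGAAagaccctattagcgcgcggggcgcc
Ska2 (chr11:87109011-87109310, plus strand): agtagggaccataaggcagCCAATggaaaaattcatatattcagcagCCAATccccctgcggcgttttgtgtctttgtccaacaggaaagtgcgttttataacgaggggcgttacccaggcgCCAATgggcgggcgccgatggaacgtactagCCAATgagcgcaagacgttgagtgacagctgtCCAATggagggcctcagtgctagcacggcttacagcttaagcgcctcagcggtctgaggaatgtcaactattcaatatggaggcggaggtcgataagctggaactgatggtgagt

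The Cenpa window holds both cell cycle homology words, which start 17 bases before and at base 17 after the start site, and 2 CCAAT boxes. The Hjurp window holds 1 homology word, which starts at base 20 after the start site, and 1 CCAAT box. Mis18a has the E2F-type match and neither other word. Cenpt has 2 homology words, both over 200 bases before the start, and Ska2 has 5 CCAAT boxes and no homology word. Homology words and CCAAT boxes thus occur in genes of both directions, and the E2F-type match only in Mis18a, a higher gene. These genes were picked by their ratios, and a relation of words to ratios was not tested. RefSeq windows were found for 30 of the 34 members. A homology word was present in 50% of these 30 and in 30.6% of all 27025 genes with a window, a CCAAT box in 70% and 41.1%, and an E2F-type word in 13.3% and 2.61%. A match describes the letters only.

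Cenpa encodes the centromeric histone itself. Its level was 191 CPM (188 to 195) in control cells and 417 CPM (412 to 421) in RO-3306 cells, 2.18 times as high (2.13 to 2.22), which is a log2 ratio of 1.12. The ratio was 0.80 without set A and 1.57 without set B. Single control cells ran from 0 to 1329 CPM with a median of 116, and RO-3306 cells from 0 to 1174 CPM with a median of 382. The ranges overlap almost fully, and the treatments differ in how many cells are near 0: a count was present in 17 of 29 control and 35 of 37 RO-3306 cells. By set, control levels were 105, 291, 110 and 220 CPM in A to D, and RO-3306 levels were 385, 530, 433 and 302 CPM. In GRCm39, the build of the count files, the spans counted were chr5:30824214-30832181 for Cenpa, chr16:90516200-90524259 for Mis18a, chr1:88186578-88205366 for Hjurp, chr8:106571297-106581678 for Cenpt and chr11:87000087-87013800 for Ska2.

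Mis18a, part of the complex that readies the centromere for new CENP-A, stood at 85.2 CPM (82.9 to 87.4) in control cells and 186 CPM (183 to 188) in RO-3306 cells, a log2 ratio of 1.12. In single control cells it ran from 0 to 356 CPM with a median of 0, against 0 to 373 CPM with a median of 149 in RO-3306 cells. A count was present in 14 of 29 and 34 of 37 cells. Leaving out set B gave a Mis18a ratio of 0.71, and leaving out set A gave 2.18. In set C none of the 6 control cells had a count, while the control levels were 163 CPM in A, 34 CPM in B and 96 CPM in D. In RO-3306 cells the 4 sets lay between 160 and 219 CPM.

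Hjurp encodes the chaperone that deposits CENP-A, and its level went the other way, from 170 CPM (167 to 173) in control cells to 56.4 CPM (54.8 to 57.9) in RO-3306 cells, a log2 ratio of -1.58. Control cells ran from 0 to 820 CPM with a median of 58.9, and RO-3306 cells from 0 to 350 CPM with a median of 21.3. Similar shares of cells had a count, 20 of 29 and 26 of 37, while the level among them differed. Control levels by set were 137, 165, 182 and 286 CPM, and all lay above the RO-3306 levels of 37.3, 50.3, 87.0 and 35.4 CPM. Of the Hjurp span, 18.3% is covered by Mroh2a, and by the counting tool's default reads there go to neither gene. Oip5, the Mis18-beta subunit, had 50 CPM (48.3 to 51.7) and 44.8 CPM (43.5 to 46.2).

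The constitutive centromere network is the inner layer that sits on CENP-A chromatin, and 10 of its 12 genes were measured. Their median ratio was 0.23 and they summed to 1066 CPM in the controls and 1260 CPM after RO-3306. Cenpt, whose product links centromeric DNA to the Ndc80 complex, was scarce, at 9.25 CPM (8.53 to 10) and 26.5 CPM (25.4 to 27.5), a log2 ratio of 1.42. It had a count in 7 of 29 control and 19 of 37 RO-3306 cells, with highest cells of 63.8 and 279 CPM and medians of 0 and 1.2 CPM. In set A the 10 control cells together held only a fraction of 1 count of Cenpt, so the ratio there is set by the pseudocount. Without set A the Cenpt ratio was 0.73, and without set B it was 2.15. Its histone-fold partner Cenpw was among the most widely detected members, with 145 CPM (142 to 148) in control cells and 197 CPM (194 to 200) in RO-3306 cells. The Cenpw ratios by set were 0.38, 0.36, 0.53 and 0.21, the narrowest range among the members with 1 sign in all 4 sets.

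Cenph, Cenpi, Cenpk and Cenpm encode 1 subcomplex of this network. Cenph had 194 CPM (190 to 197) in control and 284 CPM (280 to 287) in RO-3306 cells. For Cenpm the levels were 233 CPM (230 to 237) and 228 CPM (225 to 231), and for Cenpk 124 CPM (122 to 127) and 116 CPM (114 to 119). Cenpi had the lower ratio of the 4, with 87.6 CPM (85.4 to 89.9) and 51.3 CPM (49.9 to 52.8), a log2 ratio of -0.76. Over all kept cells Cenph and Cenpi thus went opposite ways, but not in every set. Both ratios were negative in set B, at -0.19 and -2.02. In set D both were positive, at 5.99 and 0.34, with Cenph at only 2.86 CPM in the controls. Cenpk and Cenpm were nearly level and change sign with the scaling. Cenph counts were fractional in 73.2% of the libraries with a count, so reads that match more than 1 place in the genome were counted for it there.

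Cenpl, whose product binds CENP-A chromatin together with CENP-N, had 96.7 CPM (94.4 to 99.1) in control cells and 31.7 CPM (30.5 to 32.8) in RO-3306 cells, a log2 ratio of -1.58. The control level came from 7 of 29 cells, and 1 of them, B1, held 34.2% of the counts. In RO-3306 cells 17 of 37 had a count and the highest cell reached 166 CPM, against 867 CPM in control cells. More cells with lower levels thus gave the smaller sum, and the sets differed in sign, with -1.26 in A, -3.73 in B and 1.56 in D. The set D control level came from 1 of 5 cells. In set C no control cell had a count, so the ratio of 5.45 there is set by the pseudocount. Without set B the Cenpl ratio was -0.89. Cenpn itself had no count in any library, and its span lies fully within that of Cmc2, so its expression could not be read from these files.

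Cenpo, Cenpp, Cenpq and Cenpu encode the CENP-O group. Cenpq had 135 CPM (132 to 137) in control cells and 265 CPM (262 to 269) in RO-3306 cells, a log2 ratio of 0.97 that was 0.23 without set C. Cenpp was nearly equal, at 33.1 CPM (31.7 to 34.5) and 33.6 CPM (32.4 to 34.8). Its span is covered to 41.4% by other genes. Cenpu was scarce, with 6.48 CPM (5.88 to 7.13) and 17.8 CPM (16.9 to 18.6) and a log2 ratio of 1.33, and its set ratios differed in sign. Without set D the Cenpu ratio was 0.75, and without set C it was 2.01. Cenpo, at 1.29 CPM (1.04 to 1.61) and 8.42 CPM (7.84 to 9.04), was under the minimum, with other genes over 49.7% of its span.

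The Mis12 complex joins the inner centromere to the microtubule-binding outer layer, and Zwint links that layer to the corona. Zwint had the highest level among the members in both treatments before gene length is considered, with 501 CPM (495 to 506) and 489 CPM (484 to 493). Single control cells ran from 0 to 1078 CPM with a median of 334, and RO-3306 cells from 0 to 1058 CPM with a median of 401. Mis12 had 52.3 CPM (50.5 to 54.0) and 87.5 CPM (85.6 to 89.5), a log2 ratio of 0.73. For Dsn1 the levels were 38.8 CPM (37.3 to 40.3) and 71.6 CPM (69.9 to 73.3), a log2 ratio of 0.87. The Dsn1 transcript was found in 5 of 29 control cells and in 21 of 37 RO-3306 cells. In set D neither Mis12 nor Dsn1 had a count in the control cells, and Dsn1 had none in those of set C either. Pmf1 was level, at 70.6 CPM (68.6 to 72.7) and 70.4 CPM (68.7 to 72.1), and so was Nsl1, at 27.8 CPM (26.5 to 29.1) and 27.5 CPM (26.4 to 28.6). One control cell, B1, held 52.8% of the Nsl1 counts of its group.

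Ndc80, Nuf2, Spc24 and Spc25 encode the rod that grips the microtubule, and the 4 proteins occur in equal numbers in it. Their transcripts differed in ratio. Spc25 had 350 CPM (345 to 355) in control cells and 368 CPM (364 to 372) in RO-3306 cells. Spc24 had 210 CPM (207 to 214) and 145 CPM (142 to 147), and its log2 ratio of -0.54 was negative in every set. Nuf2 had 168 CPM (165 to 171) and 89.6 CPM (87.7 to 91.6), a log2 ratio of -0.90, again with 4 negative set ratios, of -0.57, -0.78, -1.30 and -1.83. Over all kept cells both were short of 2-fold, but Nuf2 was past it without set A, with a ratio of -1.16, and Spc24 was past it in set C, with -1.33. The Ndc80 sums were close, at 152 CPM (149 to 155) and 147 CPM (144 to 149), but rested on different numbers of cells. In control cells 10 of 29 had a count, and cell B6 held 40.9% of them, while 27 of 37 RO-3306 cells had a count. Leaving out set B, which holds that cell, gave an Ndc80 ratio of 1.41 in place of -0.05. Of the Spc25 span, 37% is covered by Nostrin.

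**Figure D1:**
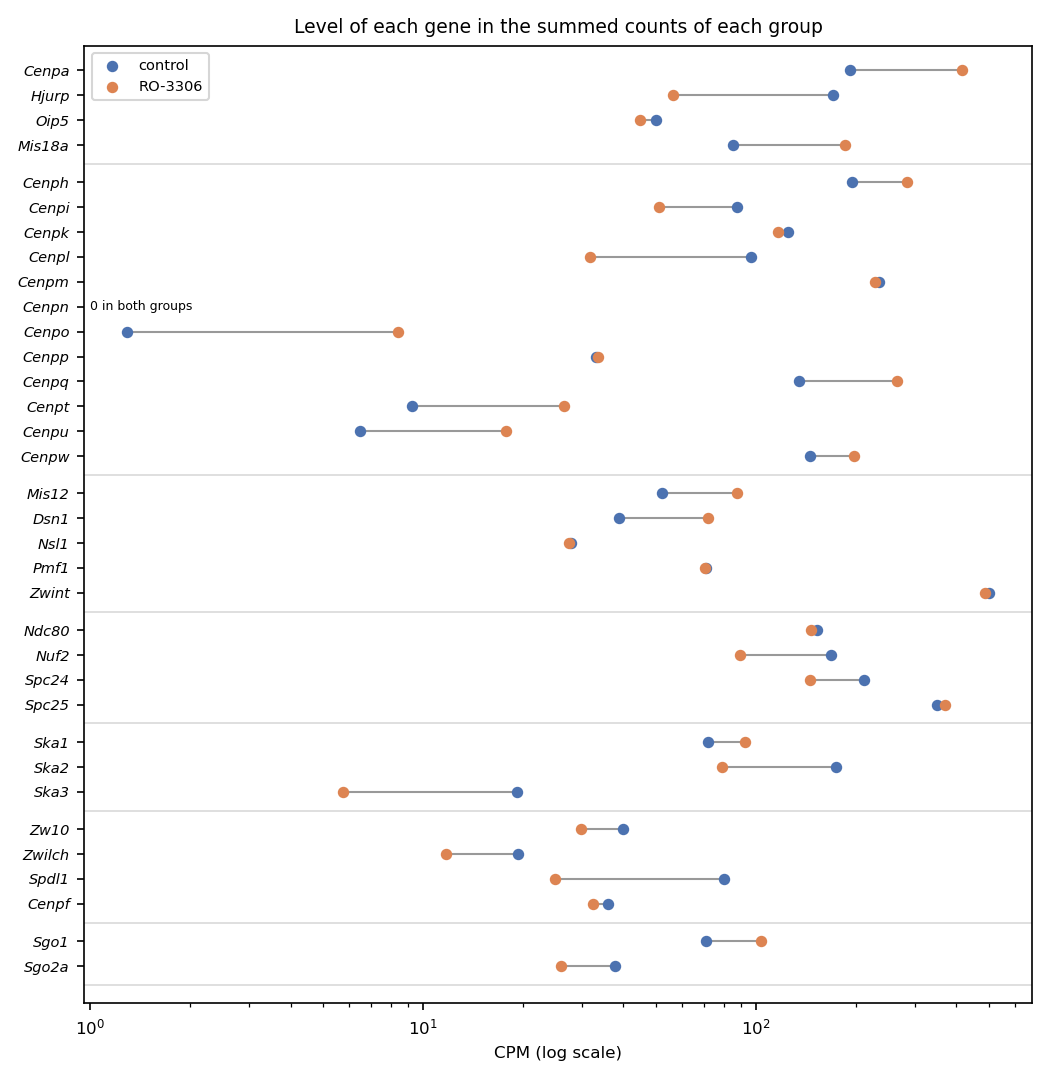
Level of each of the 34 genes in the summed counts of control (blue) and RO-3306 cells (orange), in CPM on a log axis, with grey lines joining the 2 groups and genes ordered by complex. Cenpa lies at 191 and 417 CPM and Hjurp at 170 and 56.4 CPM, while Zwint, Pmf1 and Cenpm nearly coincide; the side on which those 3 fall flips with the scaling.

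The Ska proteins help the kinetochore hold on to shortening microtubules. Ska2 had 174 CPM (171 to 177) in control cells and 78.8 CPM (77.0 to 80.6) in RO-3306 cells, a log2 ratio of -1.13. Control cells ran from 0 to 1000 CPM with a median of 36.9, and RO-3306 cells from 0 to 405 CPM with a median of 21.9, so the ranges overlap. Control levels by set were 197, 158, 233 and 92.8 CPM, against 106, 68.5, 118 and 14 CPM in RO-3306 cells. With TMM factors the Ska2 log2 ratio was -0.93 and so short of 2-fold, and without set D it was -0.89. Ska1 went the other way, with 71.9 CPM (69.9 to 74.0) and 92.7 CPM (90.7 to 94.7), but its ratio was -0.06 without set D. Ska3 was scarce, at 19.1 CPM (18.1 to 20.2) and 5.76 CPM (5.29 to 6.27), and its log2 ratio of -1.57 was -0.32 without set B.

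Zw10 and Zwilch belong to the complex that recruits Spindly, the product of Spdl1, and with it the motor dynein, and Cenpf is a large corona protein. Spdl1 had 80.1 CPM (78.0 to 82.3) in control cells and 24.8 CPM (23.8 to 25.9) in RO-3306 cells, a log2 ratio of -1.65. Counts came from 13 of 29 and 13 of 37 cells, with highest cells of 635 and 138 CPM. The Spdl1 ratio was negative in 3 sets, and in set C the control cells had no count. Zw10 had 39.8 CPM (38.2 to 41.3) and 29.9 CPM (28.8 to 31), and cell C5 held 56.0% of the RO-3306 counts. Its log2 ratio of -0.40 was 0.94 without set A and -1.86 without set C. Cenpf had 35.9 CPM (34.5 to 37.4) and 32.4 CPM (31.3 to 33.6), with set ratios from -3.94 in B to 4.85 in A. Zwilch, at 19.3 CPM (18.2 to 20.4) and 11.7 CPM (11 to 12.4), drew 77.8% of its control counts from cell B4, and its log2 ratio of -0.67 was 1.28 without set B, which holds that cell. Counts were fractional in 68.6% of the libraries with a Zw10 count and in 64.5% of those with a Zwilch count.

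Sgo1 and Sgo2a encode shugoshins, which protect cohesion at the centromere. Sgo1 had 70.9 CPM (68.9 to 72.9) in control cells and 104 CPM (102 to 106) in RO-3306 cells, with negative ratios in sets A and D and positive ones in B and C. Sgo2a had 37.6 CPM (36.1 to 39.1) and 25.9 CPM (24.9 to 27), and cell A9 held 70.8% of its control counts. Without set A, which holds that cell, the log2 ratio of Sgo2a was 1.25 in place of -0.52.

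**Figure D2:**
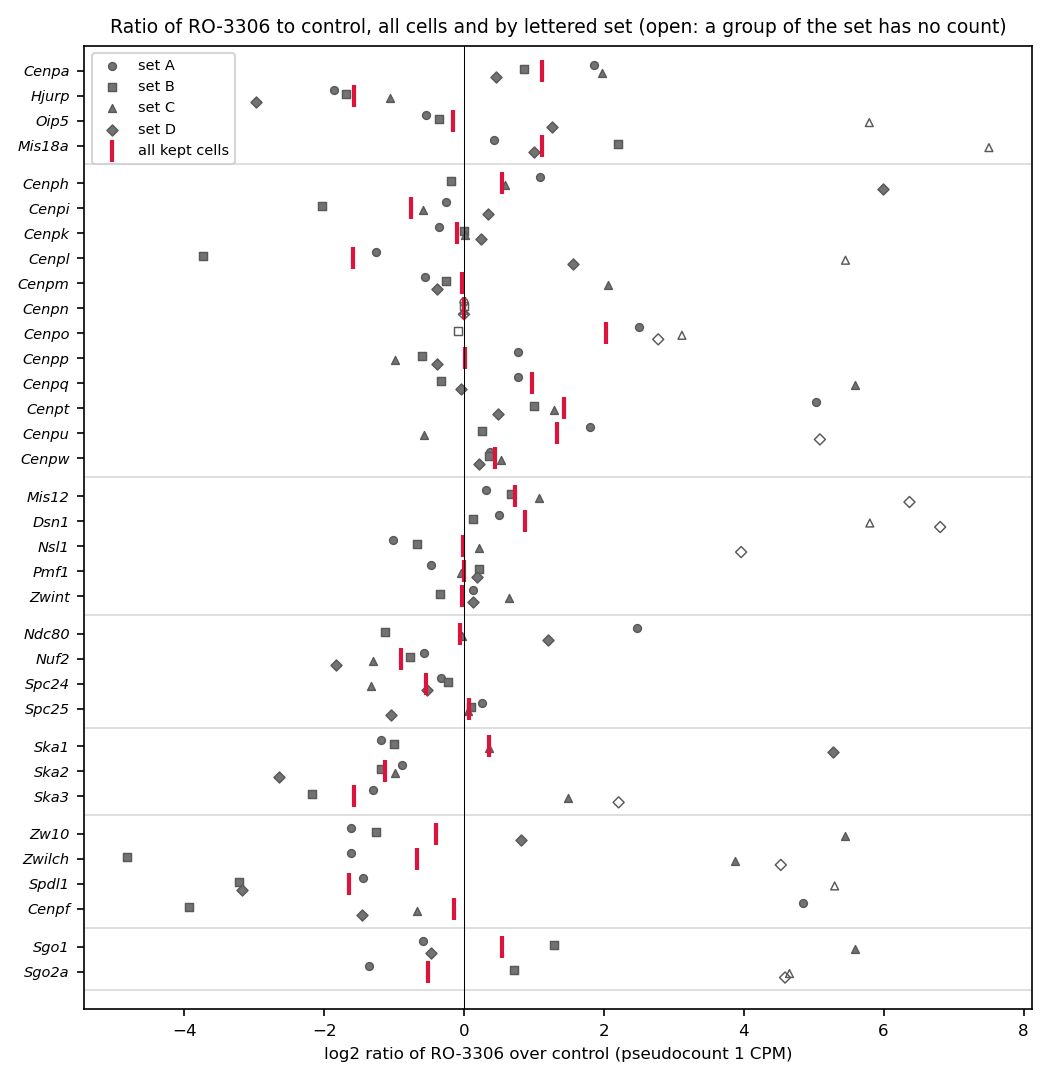
Log2 ratio of RO-3306 over control for each gene in all kept cells (red bars) and in lettered sets A to D (grey symbols; open where a treatment had no count in that set, so that the pseudocount sets the value). Cenpa, Mis18a and Cenpt lie to the right of 0 and Hjurp and Ska2 to the left in all 4 sets, while Cenpf runs from -3.94 to 4.85.

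Levels per kilobase of mRNA give only a rough scale between genes. The counts cover whole gene spans with introns, while the length is that of the mRNA alone. Reads in overlapped stretches, such as 37% of the Spc25 span, are also missing from the counts. In control cells the highest were Spc25 at 293 CPM per kb, Cenpm at 194 and Zwint at 187. In RO-3306 cells they were Spc25 at 309 CPM per kb, Cenpa at 284 and Cenph at 227. Within the Ndc80 complex, Spc25 and Spc24 stood at 293 and 154 CPM per kb in control cells, above Nuf2 at 69.7 and Ndc80 at 69.1. Over 8839 genes of any kind the ratio had a Spearman correlation of -0.36 with mRNA length, so longer transcripts tended to have lower ratios. Across the 32 measured members the correlation was -0.25, a value from few genes that was given no interval. The part of length in single ratios was not tested.

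Detection was compared after each cell was thinned to 639000 reads, which 25 control and 34 RO-3306 cells could supply. A count was then found in a larger share of RO-3306 cells for 28 of the 32 measured members, or 87.5%, where 71.9% of all measured genes did so. The median share over members was 46% of control and 69.1% of RO-3306 cells. Without set C the number was 23 of 32, beside 68.7% of all genes. In set B alone it was 13 of 32, or 40.6%, beside 47.8% of all genes. The reads carry no molecular identifiers, and the number of genes found per cell differed too, with medians of 4551 and 5958 at this depth. Its part in the detection of members was not tested.

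The widest gaps in detection were in Mis18a, found in 44% (24.4 to 65.1) of control cells and 91.2% (76.3 to 98.1) of RO-3306 cells, and in Ndc80, found in 36% (18 to 57.5) and 76.5% (58.8 to 89.3). Dsn1 was found in 20% (6.83 to 40.7) and 58.8% (40.7 to 75.4) of cells, Cenpt in 16% (4.54 to 36.1) and 50% (32.4 to 67.6), and Cenpa in 64% (42.5 to 82.0) and 97.1% (84.7 to 99.9). Ska2 was found in 76% (54.9 to 90.6) of control and 67.6% (49.5 to 82.6) of RO-3306 cells. It was 1 of the 4 members with the smaller share in RO-3306 cells, with Cenpw, Ska3 and Spdl1.

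**Figure D3:**
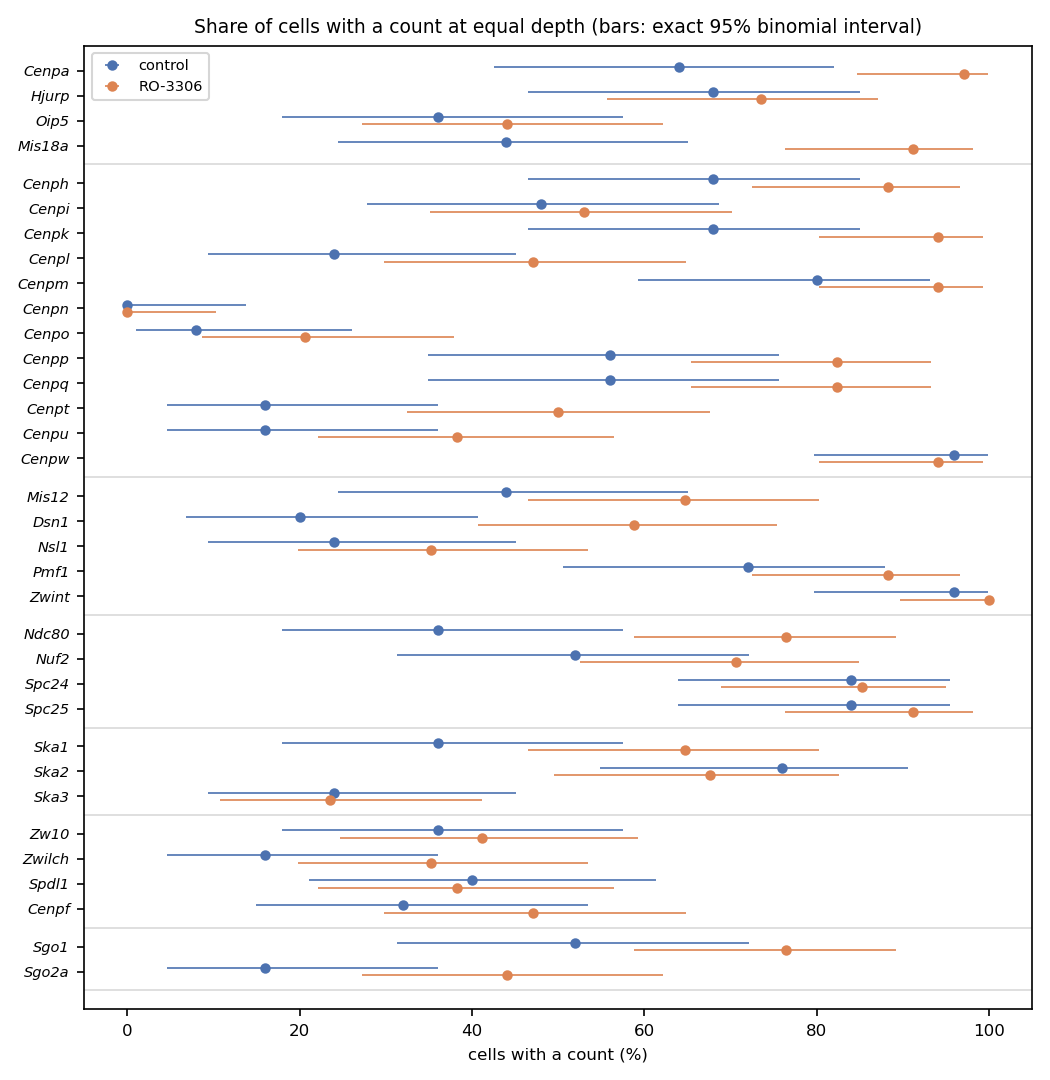
Share of cells with a count for each gene after thinning to 639000 reads per cell, in 25 control (blue) and 34 RO-3306 cells (orange). Bars are exact 95% binomial intervals that take cells as independent draws. Mis18a, Ndc80, Dsn1, Cenpt and Cenpa show the widest gaps, Zwint and Cenpw are found in nearly every cell of either treatment, and Cenpn is at 0 in both.

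All subunits of the Ndc80 complex were found together in 7 of 25 control cells, or 28% (12.1 to 49.4), and in 20 of 34 RO-3306 cells, or 58.8% (40.7 to 75.4). Cenpt and Cenpw were found together in 4 of 25 and 17 of 34 cells, and Cenph, Cenpi, Cenpk and Cenpm in 8 of 25 and 15 of 34. The 4 Mis12 complex transcripts were together in only 4 of 25 and 4 of 34 cells, and those of the Ska complex in 4 of 25 and 5 of 34. Hjurp, Oip5 and Mis18a were together in 6 of 25 and 12 of 34 cells, and the CENP-O group in 1 of 25 and 4 of 34. Taken singly, 71.9% of all measured genes were found in a larger share of RO-3306 cells. Joint detection in other sets of genes was not measured, so whether these values are particular to the complexes cannot be told.

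The summed level of the 34 genes at equal depth ran from 393 to 8135 CPM with a median of 4106 in control cells, and from 784 to 6225 CPM with a median of 3988 in RO-3306 cells. The coefficient of variation was 54.2% among the controls and 37.5% after RO-3306. The order was not the same in every set: in set B it was 32.4% and 44.7%, and in set C, with 5 control cells, 102% and 32.3%. The medians are close and the ranges overlap. Control cells held from 4 to 33 of the 34 transcripts with a median of 15, and RO-3306 cells from 7 to 30 with a median of 24. Per 1000 genes found in a cell, members had a median of 3.23 in control and 3.83 in RO-3306 cells.

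**Figure D4:**
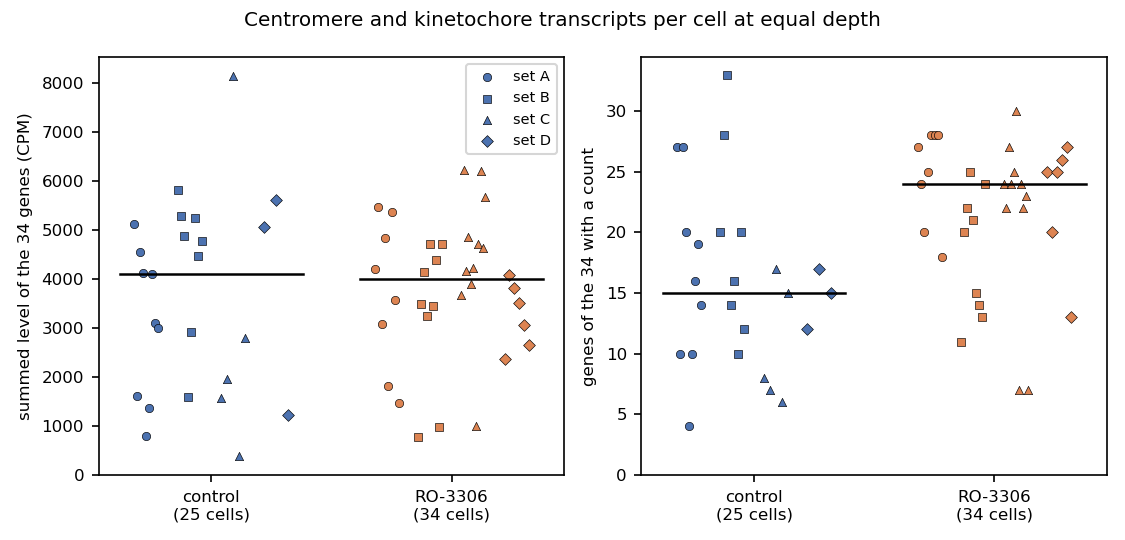
Summed level of the 34 genes in CPM (left) and number of the 34 with a count (right) in each cell at equal depth, by treatment and lettered set, with black lines at the medians. The medians are 4106 and 3988 CPM on the left and 15 and 24 genes on the right.

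The members were then set beside cell cycle lists from which they had been left out. The sum over 48 G2/M genes was 7851 CPM in the controls and 7846 CPM after RO-3306, and over 41 S phase genes it was 4224 and 3077 CPM. The near equal G2/M sum hides differences between genes and sets. Of the 48 genes 29 were lower and 19 higher, with a median ratio of -0.36 beside -0.22 for all genes. At least 2-fold lower were 27.1%, beside 24.2% of all genes, and at least 2-fold higher 6.25%, beside 12.2%. The log2 ratio of the G2/M sum ran from -0.32 in set B to 0.47 in set C. Across cells at equal depth, the summed level of members had a Spearman correlation with the G2/M list of 0.63 in both the 25 control and the 34 RO-3306 cells. With the S phase list it was 0.27 and 0.44. The number of members found followed the number of genes found in the cell, at 0.75 and 0.78. The points share a library and its depth, so these values are descriptions. Correlations of 1 member with the sum of the others were taken for members with a count in at least 10 cells of a treatment. Their median was 0.3 over 19 members in control cells, with a range of -0.11 to 0.69. In RO-3306 cells it was 0.18 over 31 members, with a range of -0.10 to 0.52. These medians cover different members and were not compared.

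**Figure D5:**
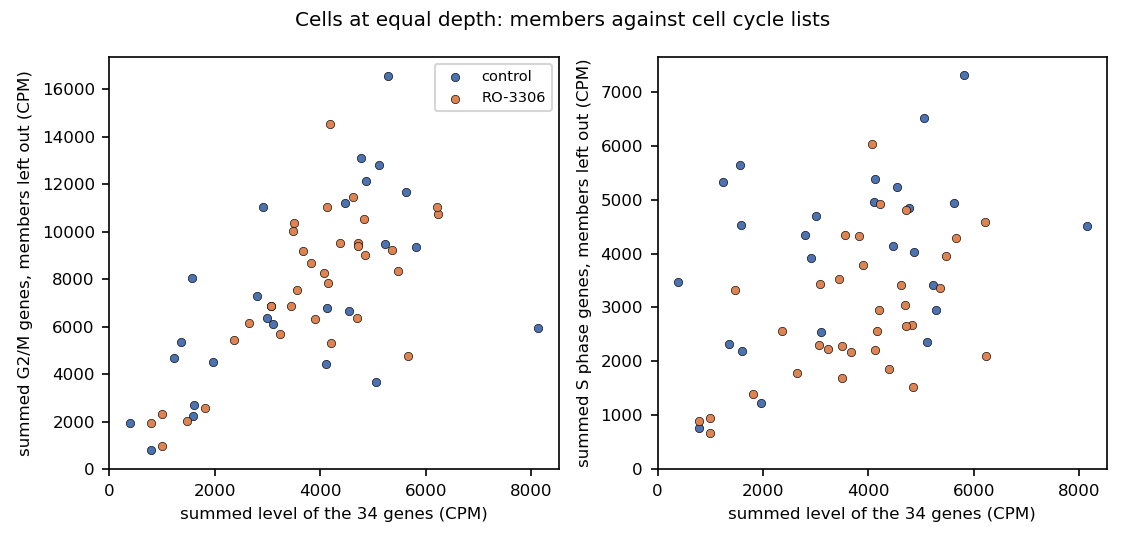
Summed level of the 34 genes (horizontal axes, CPM) against the summed G2/M genes (left) and S phase genes (right), in CPM, with 1 point per cell at equal depth, in 25 control (blue) and 34 RO-3306 cells (orange). Cells with more of the members tended to have more of the G2/M genes in both treatments, with a Spearman correlation of 0.63 in each, against 0.27 and 0.44 for the S phase genes.

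Beyond the 34, a list of 27 further kinetochore and checkpoint genes gave 26 measured genes with a median ratio of -0.14, beside -0.03 for the members. Of these, 7, or 26.9%, were at least 2-fold lower in RO-3306 cells and 1, or 3.85%, at least 2-fold higher, beside 24.2% and 12.2% of all genes. The 1 higher gene was Knstrn, which encodes a spindle and kinetochore adaptor, with 85.9 CPM (83.7 to 88.1) and 257 CPM (254 to 261) and set ratios of 1.54, 1.38, 1.82 and 1.78. Cenpb, whose product binds a centromeric DNA motif, had 35.4 CPM (34 to 36.8) and 13.8 CPM (13 to 14.5), with 4 negative set ratios. Bub1b, the checkpoint protein BubR1, had 70.2 CPM (68.2 to 72.2) and 23.1 CPM (22.1 to 24.1), with set ratios of -0.01, -1.96, -2.38 and -1.97.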

How the data were processed

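RNA of 96 single C10 cells was sequenced as single reads of 150 nt from SMART-seq v4 cDNA, per the labels' protocols. Per the file headers, the authors used featureCounts 2.0.3 to give estimated counts per gene, the deposited unit. Reads were counted over whole gene spans of the RefSeq GRCm39 annotation, introns included, with multi-mapping reads split into fractions and with no strand option, so overlapping and antisense genes cannot be told apart. STAR and FastQC are named, without versions, in the submitters' processing notes.

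Counts were summed per treatment and scaled to 1000000 (CPM). Log2 ratios used a pseudocount of 1 CPM and a minimum mean of 5 CPM. Counts were rounded for exact Poisson and Clopper-Pearson intervals, for thinning to 639000 reads, and for the TMM (edgeR 4.0.16) and DESeq2 1.42.0 factors. mRNA lengths are those of GENCODE M21 principal transcripts, and promoters are RefSeq windows. Members with a mean of at least 20 CPM, or past 2-fold with 1 sign in all 4 sets, were named in full. Members and lists were chosen with earlier results of these data known. The arithmetic was tested on simulated counts. Alternatives covered scaling, cell and gene filters, lettered sets, the highest cell, pseudocount and depth.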

Additional observations from a re-analysis of the deposited data

Results flagged for a closer look

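Libraries left out for few counts or genes still held transcripts of the 34 genes. In the 11 RO-3306 libraries left out they summed to 2118 CPM (2035 to 2203), and in the 19 control libraries left out to 221 CPM (176 to 279). All 11 RO-3306 libraries and 9 of the 19 control libraries had a count. Library D4 gave 43.2% of the RO-3306 counts and library C9 57.0% of the control counts. Without those libraries the levels were 1430 CPM and 98.7 CPM. The left-out libraries lie outside the comparisons above. The 11 of RO-3306 held 1162600 counts together and the 19 of the controls 341166, so they differ in depth. The part of depth in these values was not tested.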

How the results depend on the processing

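Under TMM factors, DESeq2 size factors and the mean over cells, the summed log2 ratio of the members was 0.28, 0.30 and 0.14, and their median ratio 0.18, 0.20 and 0.21. The summed ratio was 0.11 without the highest cell of each treatment. Members at least 2-fold higher numbered 7 of 33 with either factor, beside 15.8% (TMM) and 16.3% (DESeq2) of all genes. The 33 include Cenpo, which passed the minimum under these factors and is 1 of the 7. Cenpo also passed it with set B, C or D left out. At a minimum of 20 CPM the number was 2 of 28, beside 8.51%. With 1 lettered set left out at a time, the summed ratio ran from -0.076 to 0.21, the median ratio from -0.13 to 0.17, members at least 2-fold lower from 3 to 7 and members at least 2-fold higher from 4 to 9, while 24.2% to 27.6% of all genes were that much lower and 13.1% to 15.9% that much higher. The median member level per cell then ran from 2997 to 4610 CPM in control cells and from 3507 to 4173 CPM in RO-3306 cells, and was 3089 CPM in control cells at full depth. The cause of these shifts was not tested. Among the 5 genes past 2-fold with 1 sign in every set, log2 ratios over all alternatives ran from 0.80 to 1.57 for Cenpa, 0.71 to 2.18 for Mis18a, 0.73 to 2.15 for Cenpt, -2.001 to -1.29 for Hjurp and -1.46 to -0.89 for Ska2, and none changed sign. Of 363 values for single members, 201 moved beyond their counting interval. Alternatives for the number of members detected in a larger share of RO-3306 cells were chosen after seeing the data. They ran from 23 to 30 of 32, while the share of all genes ran from 68.0% to 75.9%. The 23 of 32, without set C, are 71.9%, beside 68.7% of all genes. No paired analysis was possible because no test was made: cells are not replicates, and the numbers in the titles have no stated meaning. The number of cells, apart from depth, limits what can be read for scarce members: at 0 of 25 control cells the exact interval reaches 13.7%.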
